A study of Mus musculus with 8 samples.

Results

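The 28 genes described here encode enzymes that oxidise fatty acids and make or use ketone bodies, with a few regulators of that pathway. They were chosen by gene name among the probes of a mouse array, and 38 of the 55681 probes that carry no control sequence bear one of these names. The pathway was brought forward because Decr1 and Bdh1 stood high in IgE-bearing cells, so the IgE values of those 2 genes are given as a description with no test. Of the 28 genes, 26 were measured well enough to be tested, among 19973 genes tested in all.

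The cells were A20, a mouse B lymphoma line. It was left untransfected, stably transfected with membrane IgM, or stably transfected with IgE in the lines named clone 18 and clone 41. Each of the 4 lines was measured on 2 one-colour arrays, and the untransfected and IgM lines served as the 2 controls. All 4 lines grew in the same medium, with 10% serum and 50 µM beta-mercaptoethanol. No promoter or vector is named, and IgE is represented by 2 clones only, each of which may carry differences of its own from other A20 cells. Whether both arrays of a line stem from independent cultures is not stated. The p-values given here therefore cover the variation among these 8 arrays alone, and that variation may be technical.

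In beta-oxidation, a fatty acid is activated to its acyl-CoA, carried across the inner mitochondrial membrane as a carnitine ester, and shortened in repeated rounds of dehydrogenation, hydration, a second dehydrogenation and thiolysis. Each round yields acetyl-CoA and passes electrons to the respiratory chain, and double bonds in unsaturated fatty acids need auxiliary enzymes before the rounds can go on. The liver turns surplus acetyl-CoA into the ketone bodies acetoacetate and beta-hydroxybutyrate, which other tissues oxidise. Activated lymphocytes are known mainly for their use of glucose and glutamine, while memory T cells and germinal centre B cells have been linked to fatty acid oxidation.

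Values are log2 signals relative to the 75th percentile of the same array, and each gene is read by its brightest probe. A level of 0 therefore equals that percentile, and levels of different genes are not compared, since probes differ in brightness. The weakest signal scored as well above background lay between -4.90 and -4.63 on the 8 arrays. A gene was called when the adjusted p of the fit was under 0.05 and the difference at least 2-fold. The 75th percentile was 474 to 524 intensity units on the IgE arrays and 584 to 664 on the control arrays, and 49.7% to 58.9% of spots were well above background. All 10 B cell markers checked, among them Cd79a, Cd79b and Pax5, were well above background on every array. Their summed signal was 174316 to 203701 units on the IgE arrays and 217735 to 311901 on the control arrays. These sums were not scaled by the 75th percentile, so its lower level on the IgE arrays enters them. Because whole cultures were measured, fewer cells with a transcript and less transcript per cell cannot be told apart.

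Markers of other cells were checked beside these values. The hepatocyte markers Alb, Apoa1, Ttr and Cyp2e1 were above background on no array, and of 6 listed only 1 to 2 were measured. The adipocyte and stromal markers Plin1, Lep, Col1a1 and Dcn were likewise above background on no array, with 1 to 4 of 8 measured. Of 8 T cell markers, 4 to 7 were measured on an array, Cd8a on none. Their summed signal, also unscaled, was 2202 to 2872 units on the IgE arrays against 2981 to 3909 on the control arrays. Cd5 was called lower in the IgE lines at -1.72 on the log2 scale (adjusted p = 0.0017), and Cd3g was measured on 2 control arrays and no IgE array. Of 9 myeloid markers 6 to 7 were measured, Lyz2 and Cd14 on no array, and the unscaled sums overlapped, at 25814 to 36170 and 30675 to 34990 units. Among them Cd68 and Fcgr3 were called higher, at 1.68 and 1.17, and Emr1 lower, at -4.41 (adjusted p 0.00091, 0.00089 and 0.00057). The part of these markers in the differences below was not tested.

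Decr1 was measured in both IgE clones and in neither control. It encodes the mitochondrial 2,4-dienoyl-CoA reductase, an auxiliary enzyme for unsaturated fatty acids, and its probe lies on mm9 chromosome 4, 15846075 to 15846134, minus strand. Its log2 signal was 3.04 and 3.19 on the arrays of clone 18 and 3.12 and 3.15 on those of clone 41. It was -6.74 and -6.88 in untransfected cells and -5.64 and -6.79 in IgM cells, none of them well above background. The 4 IgE arrays lay close together and far above all 4 control arrays. In processed intensity units the IgE arrays read 4016 to 4563 and the control arrays 4.99 to 13.1. Against the weakest signal that counts as measured, Decr1 was at least 248-fold higher in the IgE lines, and the bound for each clone against each control ran from at least 245-fold to at least 250-fold. The fold is a lower bound because no control level was measured.

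The second Decr1 probe, which starts at 15844647, was much dimmer and separated the lines in the same way. It read -3.26 and -3.76 in clone 18 and -4.09 and -3.17 in clone 41, all well above background, and stayed below background on the 4 control arrays. The bound from this probe was at least 2.38-fold. Both probes thus read the gene in the 4 IgE arrays and in no control array.

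Bdh1 showed the same division of the lines. It encodes the mitochondrial beta-hydroxybutyrate dehydrogenase, which interconverts the ketone bodies acetoacetate and beta-hydroxybutyrate, and its probe lies on mm9 chromosome 16, 31457378 to 31457437, plus strand. The log2 signal was 1.98 and 2.06 in clone 18, 1.90 and 1.65 in clone 41, -7.01 and -6.53 in untransfected cells, and -5.73 and -7.18 in IgM cells. No control array was well above background, and the 4 IgE arrays spanned 1485 to 2063 intensity units against 4.01 to 12.3 on the control arrays. Bdh1 was at least 106-fold higher in the IgE lines. For single pairs of lines the bounds were at least 115-fold and 116-fold in clone 18 and at least 96.7-fold and 97.4-fold in clone 41.

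The 2 further Bdh1 probes were also above background on all 4 IgE arrays and on no control array. The probe starting at 31457249 read 0.48 to 0.80 on the IgE arrays, a bound of at least 43.3-fold. The probe starting at 31458195 read -3.21 to -2.16, a bound of at least 4.73-fold. The size of the bound therefore moved with the brightness of the probe, and the division of the arrays did not. The clones were close to each other for both genes. Clone 41 differed from clone 18 by 0.02 for Decr1 and by -0.25 for Bdh1 on the log2 scale. No SE or p is given, because the spread shared by the 4 lines takes in control arrays below background. Untransfected and IgM cells were below background for both genes, so no fold between them is given.

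**Figure D1:**
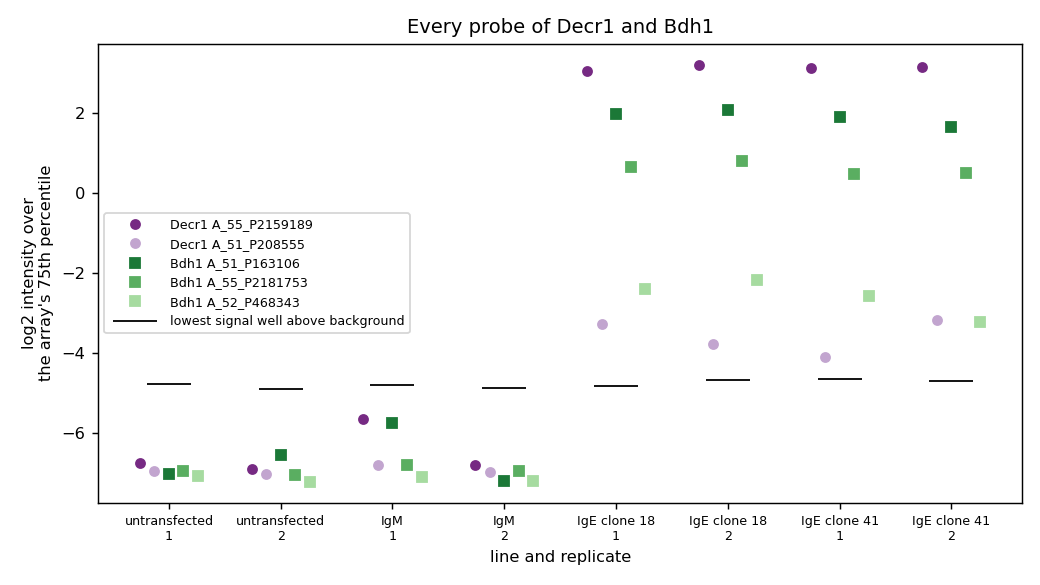
Log2 signal of each of the 5 probes of Decr1 (circles) and Bdh1 (squares) on each of the 8 arrays, with a bar at the weakest signal well above background on that array. All 5 probes lie above the bar on the 4 IgE arrays and below it on the 4 control arrays.

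The Bdh1 promoter is shown because the gene passed from unmeasured to measured between lines of the same origin. RefSeq places 2 transcription starts for Bdh1 on assembly GRCm38.p6, both on the plus strand, and the 250 bases before each are printed 5′ to 3′. Promoter windows were found for 25 of the 28 genes. Capitals would mark a searched motif, and neither window holds one.
Bdh1 start 1, chr16:31422047-31422296: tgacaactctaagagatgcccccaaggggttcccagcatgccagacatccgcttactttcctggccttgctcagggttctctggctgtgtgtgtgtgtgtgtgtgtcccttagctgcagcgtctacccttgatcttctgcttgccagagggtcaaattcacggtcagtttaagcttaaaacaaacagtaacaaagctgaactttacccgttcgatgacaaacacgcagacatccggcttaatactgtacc
Bdh1 start 2, chr16:31428503-31428752: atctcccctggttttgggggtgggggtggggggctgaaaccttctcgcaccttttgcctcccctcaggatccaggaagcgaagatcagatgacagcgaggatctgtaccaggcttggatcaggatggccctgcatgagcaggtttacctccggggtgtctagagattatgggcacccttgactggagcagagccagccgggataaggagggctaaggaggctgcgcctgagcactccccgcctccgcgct
Motifs were searched on both strands in the 250 bases before each start, in 27 windows of these genes and 32851 windows of all genes. The PPAR element, a direct repeat of AGGTCA with 1 base of any kind between the copies, is bound by the fatty acid receptor PPAR alpha. It was found in 0 of the 27 windows and in 0.0335% of all windows. The single copy AGGTCA, which overlaps every PPAR element, was found in 4 of 27 and in 14% of all. The E-box CACGTG was in 0 of 27 and 6.02% of all, the GC box GGGCGG in 15 of 27 and 32.7%, and the CCAAT box in 10 of 27 and 33.8%. A match describes these letters only.

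Genes on both sides of Decr1 and Bdh1 were compared in the same way. Of the 4 tested genes on each side of Decr1, none was called. The nearest, Nbn, a DNA break repair gene 60.4 kb away, differed by 0.14 ± 0.12 between IgE and control lines (adjusted p = 0.459), and Osgin2 at 78.5 kb by -0.45 ± 0.14 (adjusted p = 0.0759). On the Bdh1 side, a probe that the array design names LOC100047123, an unclassified transcript, lies 29.3 kb before the Bdh1 probe. This probe read -2.77 to -2.41 on the IgE arrays and -7.00 to -6.82 on the control arrays, where it was not above background. Its bound was at least 4.71-fold, given with no test because it was measured in the IgE lines alone. The LOC100047123 probe starts at mm9 position 31428070, while the 2 Bdh1 starts above are placed on another assembly. Whether this probe lies inside the Bdh1 gene was not tested. Of the other 7 neighbours 1 was called, 0610012G03Rik at 490 kb, which differed by 1.16 ± 0.15 (adjusted p = 0.00388). Dlg1 at 414 kb differed by -0.12 ± 0.13 (adjusted p = 0.566) and Pigz at 489 kb by -0.79 ± 0.25 (adjusted p = 0.0682).

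**Figure D2:**
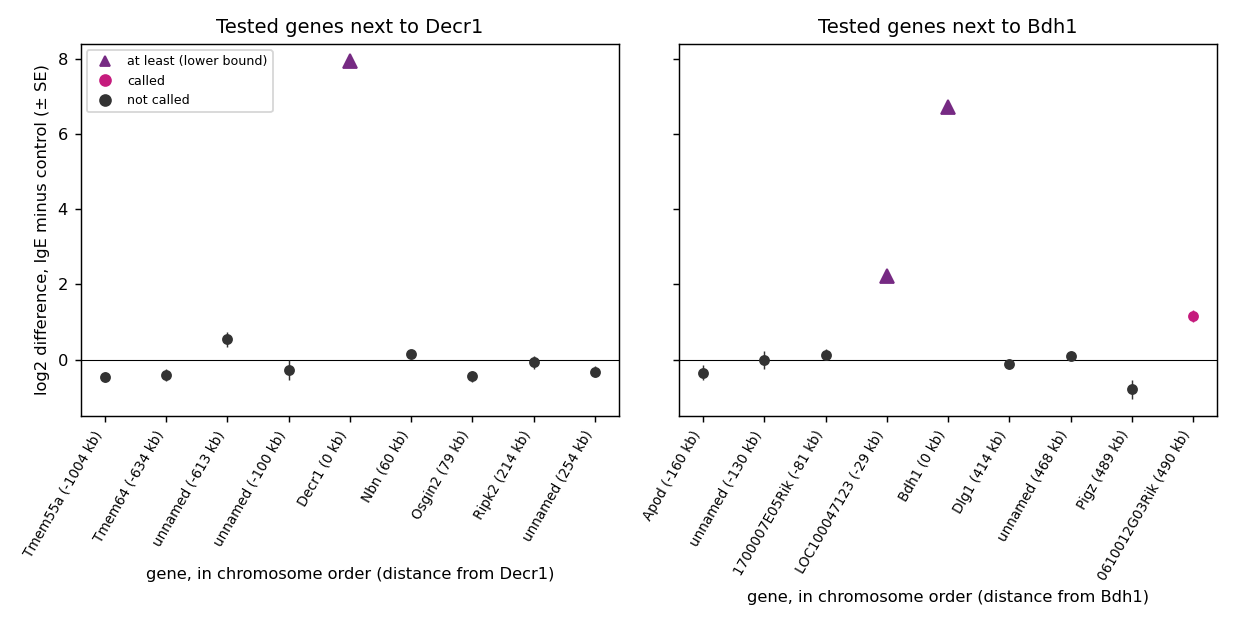
Log2 difference between IgE and control lines (± SE) for Decr1, Bdh1 and the 4 tested genes on each side of them, in chromosome order on mm9 with the distance of their probes in kb. Triangles are lower bounds, at least 248-fold for Decr1, 106-fold for Bdh1 and 4.71-fold for LOC100047123.

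Over the whole group, most genes of the pathway differed by little. In the IgE against the control lines, 3 of the 26 tested genes were called higher and 0 lower, and Decr1 and Bdh1 are 2 of the 3. The calls of Decr1 and Bdh1 are no test, since those 2 genes were chosen for their values in this contrast. Over all genes tested, 3.40% were called higher and 5.59% lower, or 8.99% in all. The third called gene was Acsl3, so 1 of the other 24 was called. Of the 24 genes other than Decr1 and Bdh1, all well above background on all 8 arrays, 15 were lower and 9 higher in the IgE lines, with differences of -0.92 to 1.06, and 18 lay within 0.5 of 0 on the log2 scale. The median difference of the 26 genes was -0.09, against 0.04 over all genes, and it was -0.22 without Decr1 and Bdh1. It ranged from -0.20 to -0.06 when single arrays were left out, with -0.19 without untransfected replicate 2 and -0.20 without clone 41 replicate 2. At an unadjusted p under 0.05 there were 13 of the 26, Decr1 and Bdh1 included, where 34.6% of all genes met that rule. The 4 IgE arrays lay wholly above the 4 control arrays for 5 genes, Decr1 and Bdh1 included, and wholly below for 5. Among the 24 genes other than Decr1 and Bdh1 these counts were 3 and 5. Over all genes the shares were 14.4% and 10.5%, or 24.9% without overlap in all. None of the 24 genes other than Decr1 and Bdh1 was called in both clones against both controls, where 1.05% of all genes were called higher and 1.88% lower in all 4 pairs. The 4 pairs share arrays and are not independent of one another.

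**Figure D3:**
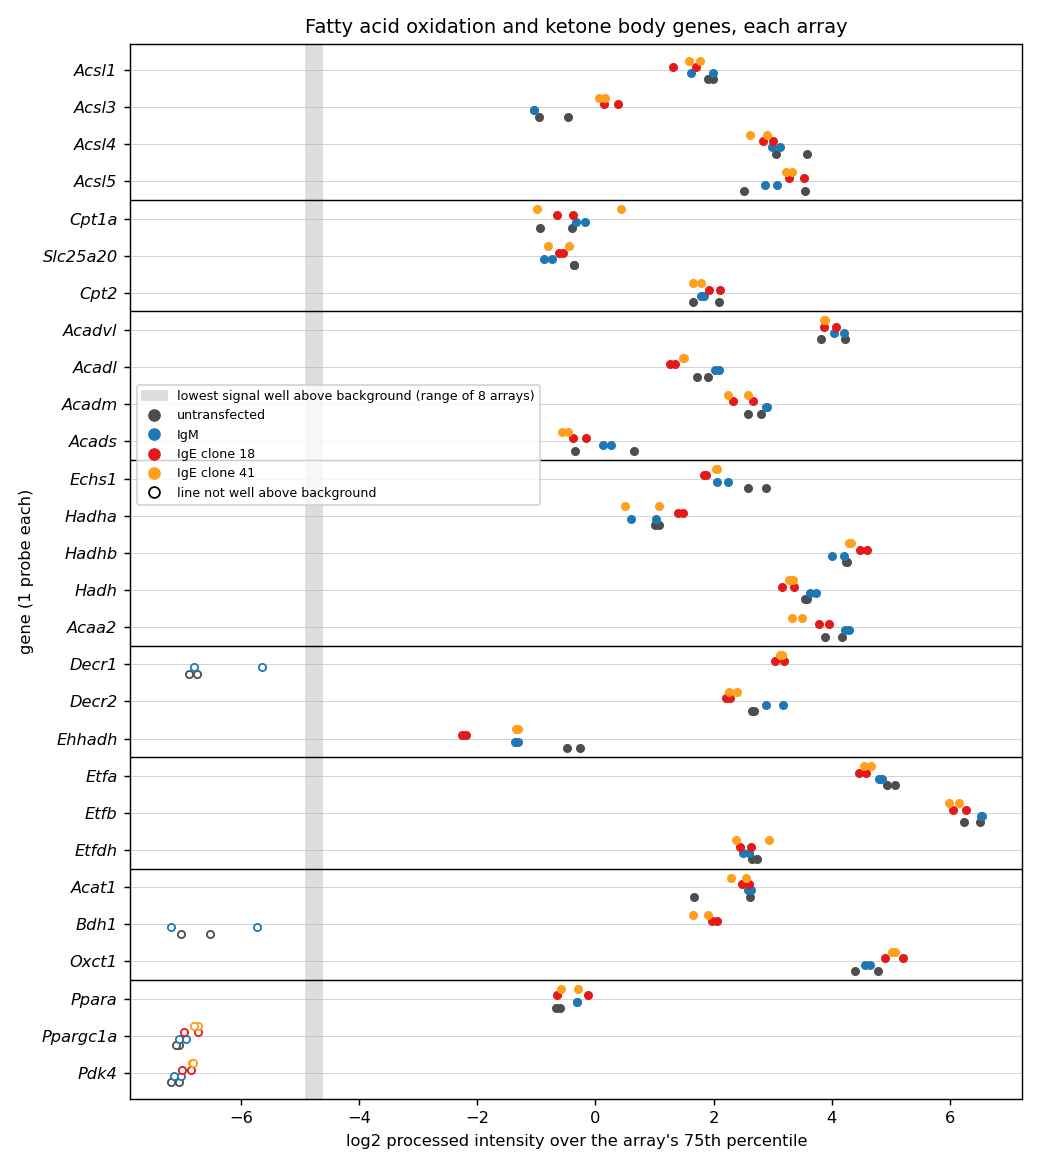
Log2 signal of the 28 genes on each of the 8 arrays, 1 probe per gene. From top to bottom they are grouped as activation, carnitine transport, acyl-CoA dehydrogenases, later steps, auxiliary and peroxisomal enzymes, electron transfer, ketone bodies and regulators. Open circles are lines not well above background, which holds for the controls in Decr1 and Bdh1 and for all lines in Ppargc1a and Pdk4, and the shaded band is the range of the weakest measured signal.

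Among the enzymes that activate fatty acids, Acsl3 rose and the other 3 did not pass. Acsl3 encodes a long-chain acyl-CoA synthetase linked to lipid droplets (mm9 chromosome 1, 78703500). It read 0.15 and 0.39 in clone 18, 0.16 and 0.06 in clone 41, -0.46 and -0.95 in untransfected cells, and -1.04 on both IgM arrays. The 4 IgE arrays lay above the 4 control arrays. The difference was 1.06 ± 0.15, or 2.09-fold (adjusted p = 0.0045). It stood near the 2-fold threshold and was no longer called without untransfected replicate 2 (0.94) or with normexp background correction (0.98). Against IgM cells it was called in both clones, at 1.31 and 1.15 (adjusted p 0.0111 and 0.0200). Against untransfected cells clone 18 stood at 0.97 (adjusted p = 0.0351), which is short of 2-fold. Clone 41 stood at 0.82 (adjusted p = 0.0728).

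The remaining synthetases differed by -0.28 ± 0.15 for Acsl1, -0.35 ± 0.16 for Acsl4, which prefers arachidonic acid, and 0.35 ± 0.23 for Acsl5 (adjusted p 0.239, 0.179 and 0.348). Their IgE and control arrays overlapped. Acsl5 read 3.54 and 2.51 on the 2 untransfected arrays, values that span all the other arrays.

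The carnitine shuttle showed no called difference by the probes used. Cpt1a, whose product forms acylcarnitines at the outer mitochondrial membrane and limits the rate of entry, differed by 0.06 ± 0.32 between IgE and control lines (adjusted p = 0.912). Its probe (mm9 chromosome 19, 3385374) read between -0.99 and 0.43, and both of these extremes came from clone 41. A second Cpt1a probe at 3384060 was dimmer. It read -3.08 and -3.48 in untransfected cells, -2.29 and -2.24 in IgM cells, -4.70 and -4.62 in clone 18, and -4.56 and -3.80 in clone 41. Only 1 of the 4 IgE arrays was well above background there, while all 4 control arrays were. No fold or p is given for this dim probe, since most of its IgE values are not measured. Which of the 2 probes reads the transcript better was not tested. Slc25a20, the carnitine-acylcarnitine carrier, differed by -0.02 ± 0.13 and Cpt2, which releases the acyl group inside, by 0.03 ± 0.14 (adjusted p 0.930 and 0.903). The second probe of Cpt2 gave -0.21 (adjusted p = 0.579).

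All 4 acyl-CoA dehydrogenase genes had lower means in the IgE lines, and 1 passed on adjusted p alone. Acadl, the long-chain enzyme, read 1.26 and 1.34 in clone 18, 1.48 and 1.49 in clone 41, 1.90 and 1.72 in untransfected cells, and 2.09 and 2.02 in IgM cells. The 4 IgE arrays lay below all control arrays. Its difference was -0.54 ± 0.11, a 1.45-fold step (adjusted p = 0.0183) that does not reach the 2-fold threshold. Acads, the short-chain enzyme, differed by -0.56 ± 0.23 (adjusted p = 0.131), but its untransfected arrays read 0.65 and -0.35 and overlapped with the IgE range. The medium-chain gene Acadm differed by -0.33 ± 0.14 and the very-long-chain gene Acadvl by -0.15 ± 0.14 (adjusted p 0.152 and 0.475).

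The later steps of the spiral split by gene. Echs1, the short-chain enoyl-CoA hydratase, differed by -0.49 ± 0.12 (adjusted p = 0.0373). Its arrays read 1.84 to 2.05 in the IgE lines, 2.58 and 2.89 in untransfected cells, and 2.05 and 2.25 in IgM cells. The gap to untransfected cells was wide, and the lower IgM array lay just above the IgE range. Against untransfected cells Echs1 differed by -0.88 in clone 18 (adjusted p = 0.0265) and by -0.69 in clone 41 (adjusted p = 0.0703), and against IgM cells by -0.30 and -0.10.

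Acaa2, the mitochondrial thiolase that cleaves acetyl-CoA off, differed by -0.51 ± 0.13 (adjusted p = 0.0367). Clone 41 read 3.33 and 3.50, clone 18 3.78 and 3.95, and the control arrays 3.89 to 4.30, so that clone 18 overlapped with the controls. In clone 41 against IgM cells the difference was -0.84 (adjusted p = 0.0331). Hadh, the short-chain 3-hydroxyacyl-CoA dehydrogenase, read 3.15 to 3.36 on the IgE arrays and 3.55 to 3.74 on the control arrays. Those ranges did not overlap, and the difference of -0.34 ± 0.11 did not pass (adjusted p = 0.0759).

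The subunits of the trifunctional protein, Hadha and Hadhb, were the exceptions with higher means. Hadhb read 4.28 to 4.60 on the IgE arrays and at most 4.26 on the control arrays, with no overlap, and differed by 0.24 ± 0.11 (adjusted p = 0.178). Hadha differed by 0.19 ± 0.17 (adjusted p = 0.483), with 1.48 and 1.40 in clone 18 and 1.08 and 0.50 in clone 41. Neither subunit passed in any comparison.

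The peroxisomal enzymes Decr2 and Ehhadh were not higher in the IgE lines. Decr2 encodes the peroxisomal 2,4-dienoyl-CoA reductase, the counterpart of Decr1 in the peroxisome (mm9 chromosome 17, 26218760). It read 2.27 and 2.21 in clone 18, 2.39 and 2.26 in clone 41, 2.68 and 2.64 in untransfected cells, and 2.88 and 3.17 in IgM cells. All IgE arrays lay below all control arrays. The difference was -0.56 ± 0.12, a 1.48-fold step (adjusted p = 0.0218) under the 2-fold threshold.

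Ehhadh, the peroxisomal bifunctional enzyme and a known target of PPAR alpha (mm9 chromosome 16, 21761914), varied between lines of both kinds. It read -0.26 and -0.48 in untransfected cells, -1.36 and -1.31 in IgM cells, -2.19 and -2.25 in clone 18, and -1.34 and -1.31 in clone 41. The untransfected arrays were highest and clone 18 lowest, while IgM cells and clone 41 coincided. The pooled difference of -0.92 ± 0.11 (adjusted p = 0.0025) was short of 2-fold and hid this order. Clone 18 was called lower than untransfected cells at -1.85 ± 0.16 (adjusted p = 0.0010) and was -0.89 from IgM cells (adjusted p = 0.0158). Clone 41 was -0.95 from untransfected cells (adjusted p = 0.0180) and 0.01 from IgM cells (adjusted p = 0.980). IgM cells themselves were -0.96 ± 0.16 from untransfected cells (adjusted p = 0.0346).

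Electron transfer from the dehydrogenases to the respiratory chain runs through the flavoprotein subunits Etfa and Etfb and the oxidoreductase Etfdh. Etfa read 4.46 to 4.67 on the IgE arrays and 4.79 to 5.06 on the control arrays, with no overlap, and differed by -0.35 ± 0.11 (adjusted p = 0.0690). Etfb differed by -0.34 ± 0.13 (adjusted p = 0.106) and Etfdh by -0.02 ± 0.15 (adjusted p = 0.939). None of the 3 passed.

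Among the ketone body enzymes, neither partner of Bdh1 was called. Oxct1 encodes the enzyme that loads acetoacetate with CoA, the committed step of ketone body use (mm9 chromosome 15, 4105196). It read 4.91 and 5.20 in clone 18, 5.01 and 5.07 in clone 41, 4.78 and 4.40 in untransfected cells, and 4.57 and 4.65 in IgM cells. The IgE arrays were all above the controls, by 0.45 ± 0.14 on average, and the difference did not pass (adjusted p = 0.0677). Acat1, the acetoacetyl-CoA thiolase, differed by 0.11 ± 0.22 (adjusted p = 0.762), and 1 untransfected array, at 1.67, lay below the other 7, at 2.29 to 2.63.

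The regulators in the group gave no called difference. Ppara, the fatty acid receptor that switches on many of these enzymes in liver, has 3 probes. The brightest, used here, was measured on all arrays at -0.66 to -0.12 and differed by 0.06 ± 0.15 (adjusted p = 0.831). The probe starting at 85632110 was above background on 1 clone 18 array alone, and that at 85637193 on 1 untransfected array alone. Which probe reads the Ppara transcript better was not tested. Ppargc1a, the coactivator PGC-1 alpha, was not well above background on any array, at -7.10 to -6.72. Pdk4, a pyruvate dehydrogenase kinase that spares glucose, was likewise not well above background, at -7.18 to -6.81.

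**Figure D4:**
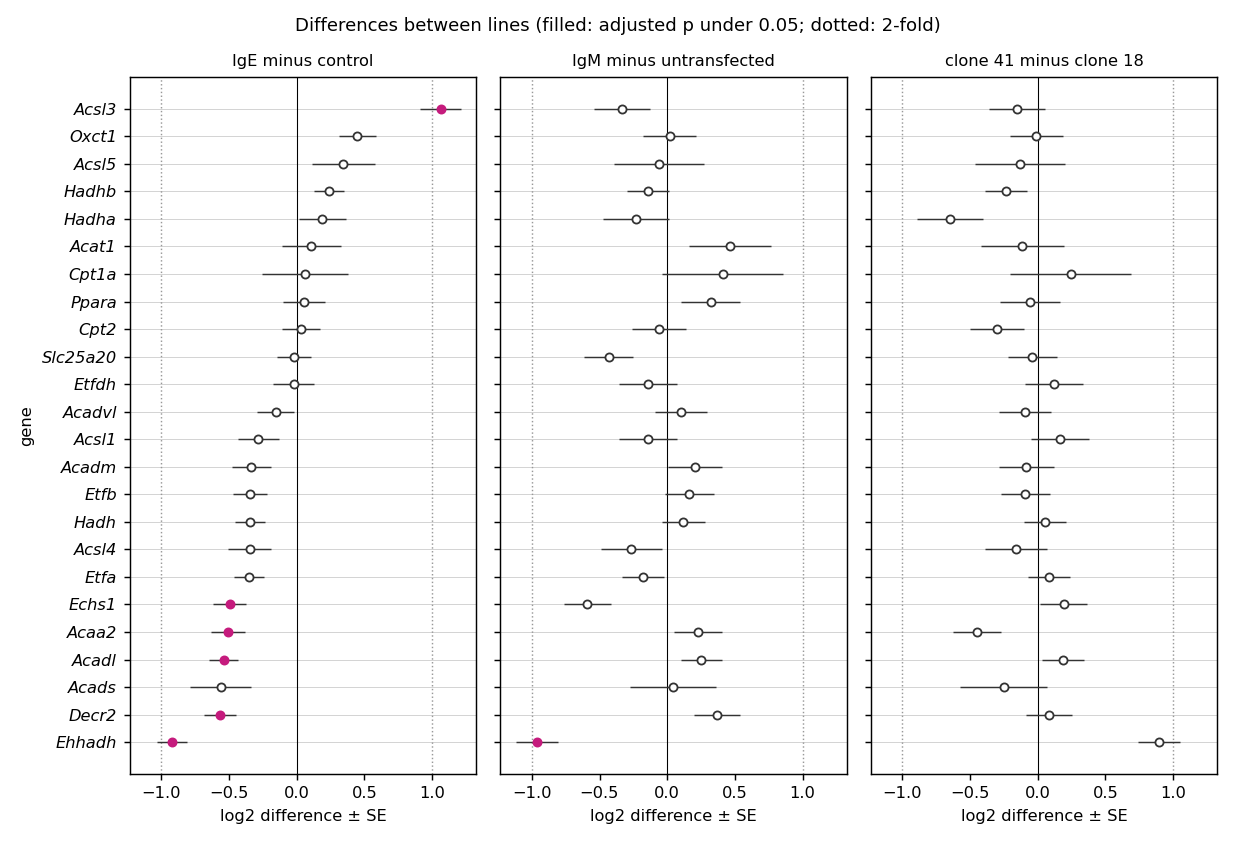
Log2 differences (± SE) of the 24 genes measured on all arrays, for IgE minus control lines, IgM minus untransfected cells and clone 41 minus clone 18. Filled points have an adjusted p under 0.05 and dotted lines mark 2-fold, which only Acsl3 passes together with that p, in the first panel.

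Without the fold threshold, 5 genes were lower in the IgE lines at an adjusted p under 0.05, namely Ehhadh, Decr2, Acadl, Acaa2 and Echs1. Among all genes, 9.47% were lower and 8.37% higher on that rule. These 5 steps were 1.41-fold to 1.89-fold in size.

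The single pairs of lines gave similar counts. Clone 18 differed from untransfected cells in 3 of the 26 genes, Decr1, Bdh1 and Ehhadh, where 7.69% of all genes were called, and the count was 5 without untransfected replicate 1. Against IgM cells clone 18 differed in Decr1, Bdh1 and Acsl3, with 9.14% of all genes called. For clone 41 the count was 2 against untransfected cells, Decr1 and Bdh1, with 5.60% of all genes called, and it was 4 without untransfected replicate 2. Against IgM cells clone 41 differed in Decr1, Bdh1 and Acsl3, with 7.39% of all genes called. In each of these counts Decr1 and Bdh1 are the genes that brought the pathway forward.

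Comparisons that played no part in that choice set the lines of 1 kind against each other. The counts here leave out Decr1 and Bdh1, which no control array measured. Between IgM and untransfected cells 0 of the other 24 genes were called by limma, where 2.03% of all genes were called. At an unadjusted p under 0.05 there were 3 of the 24, beside 14.5% of all genes. Ehhadh came closest and was called without untransfected replicate 2 (-1.07, adjusted p = 0.0293) and with quantile normalization (-1.03, adjusted p = 0.0306). Between clone 41 and clone 18, 0 of the same 24 were called by limma, where 0.355% of all genes were called. At an unadjusted p under 0.05 there were again 3, beside 5.84% of all genes. The lowest adjusted p among the 24 genes measured on every array was 0.138, for Ehhadh.

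Enzymes of the same pathway outside the group were called in few cases. Over all genes 3.40% were called higher and 5.59% lower, the shares to set beside the counts of each list below. Of 24 other mitochondrial oxidation and carnitine genes tested, 0 rose and 1 fell, with a median of -0.33. The IgE arrays lay wholly above the control arrays for 1 and wholly below for 7, beside 14.4% and 10.5% of all genes. At an unadjusted p under 0.05 limma gave 12, beside 34.6% of all genes. The gene called lower was Cpt1c, a carnitine palmitoyltransferase found mainly in neurons, at -1.28 ± 0.26 (adjusted p = 0.0197). It was dim, called in none of the 4 single pairs, and not called without either IgM array or without clone 18 replicate 2 (-1.33 to -1.16). With normexp background correction it was -0.50, and in the authors' deposited table -0.68, not called in either. The mean of its 2 probes gave -0.90, under 2-fold. With no filter on dim probes Cpt1c did not pass (-1.28, adjusted p = 0.0655). Cpt1b, the muscle form, differed by 0.52 ± 0.20 (adjusted p = 0.111).

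Of 19 peroxisomal genes tested, 1 rose and 0 fell, with a median of 0.17. For 3 of the 19 the IgE arrays lay wholly above the control arrays, and for 4 wholly below. The shares of all genes were 14.4% and 10.5%. Pex11a, a factor of peroxisome division, differed by 1.70 ± 0.17 (adjusted p = 0.0011). The difference rested on IgM cells, which read -0.91 and -1.04 against 1.15 and 0.60 in untransfected cells and 1.41 to 1.91 in the IgE lines. Against untransfected cells clone 18 differed by 0.90 (adjusted p = 0.0644) and clone 41 by 0.66 (adjusted p = 0.163), and Pex11a missed the threshold when each line was a random block (adjusted p = 0.0506).

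Ketone body and acetyl-CoA genes outside the group moved in both directions, with 1 of 10 tested genes higher, 1 lower and a median of 0.17. Acss1, which makes acetyl-CoA from acetate in mitochondria (mm9 chromosome 2, 150443871), read 2.76 and 2.95 in clone 18, 2.35 and 2.60 in clone 41, 0.51 and 0.95 in untransfected cells, and 1.03 and 0.91 in IgM cells. The 4 IgE arrays lay above all control arrays. It rose 3.51-fold (1.81 ± 0.15, adjusted p = 0.0005) and was called in all 4 pairs. Oxct2b, a testis form of the CoA transferase, was called lower (adjusted p = 0.0280), but only clone 18 was low, at -6.16 and -6.96 and not well above background. Clone 41, at -3.78 and -3.01, lay among the control arrays at -4.46 to -2.98. The call was lost in 10 of the alternative settings, and no fold is given.

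In fatty acid uptake, binding and lipolysis, 0 of 15 tested genes rose and 3 fell, with a median of 0.19. Plin3, a lipid droplet coat protein, fell by 1.58 ± 0.16 on the log2 scale (adjusted p = 0.0013) and was called in all 4 pairs, with 1.97 to 2.44 on the IgE arrays and 3.49 to 3.91 on the control arrays. Plin2, another coat protein and a known PPAR alpha target, fell by 1.99 ± 0.32 (adjusted p = 0.0076), and in clone 41 it did not pass against either control (adjusted p 0.0720 and 0.0668). Acsbg1, an acyl-CoA synthetase of brain, was called at -1.72 ± 0.28 (adjusted p = 0.0076), a value that rested on untransfected cells at -0.41 and 0.35. IgM cells read -3.74 and -3.52 and the IgE arrays -3.93 to -2.66, and treating each line as a random block gave an adjusted p of 0.254. The fatty acid receptor gene Cd36 differed by -0.07 ± 0.24 (adjusted p = 0.866).

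Among 27 regulators tested, 0 rose and 2 fell, with a median of 0.07. Acacb, whose product makes the malonyl-CoA that inhibits Cpt1 at the mitochondrion (mm9 chromosome 5, 114700702), read 1.29 and 1.31 in clone 18, 1.04 and 0.63 in clone 41, 3.22 and 2.77 in untransfected cells, and 2.84 and 2.67 in IgM cells. Every IgE array lay below every control array. It fell 3.50-fold (-1.81 ± 0.16, adjusted p = 0.0007) and was called in all 4 pairs. Acaca, its counterpart in lipid synthesis, differed by 0.46 ± 0.25 (adjusted p = 0.240). Foxo1, a transcription factor of fasting metabolism and of B cells, fell by 1.14 ± 0.21 (adjusted p = 0.0125) and was not called without untransfected replicate 2, clone 18 replicate 1 or clone 41 replicate 1 (-1.11 to -0.93). Of the 4 single pairs it was called in clone 18 against IgM cells alone (-1.73, adjusted p = 0.0139). It differed from untransfected cells by -1.12 in clone 18 and -0.56 in clone 41, and the remaining pair gave -1.16 (adjusted p 0.0659, 0.313 and 0.0597). Its IgE arrays reached 4.44 and its lowest control array read 4.42. The receptors Ppard and Pparg differed by -0.03 ± 0.13 and 0.20 ± 0.20, and the coactivator gene Ppargc1b by -0.42 ± 0.23 (adjusted p 0.904, 0.525 and 0.252).

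Of 17 listed PPAR alpha targets, 9 were tested, and 0 rose and 1 fell, which was Plin2, counted above as well. Their median was -0.22. Neither the citric acid cycle nor the respiratory chain had a called gene among 22 tested in each, with medians of -0.05 and 0.13. The IgE arrays lay wholly above the control arrays for 4 cycle genes and 8 respiratory chain genes. They lay wholly below for 1 and 0, where the shares of all genes were 14.4% above and 10.5% below. At an unadjusted p under 0.05 limma gave 4 cycle genes and 5 respiratory chain genes of 22 each, beside 34.6% of all genes.

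**Figure D5:**
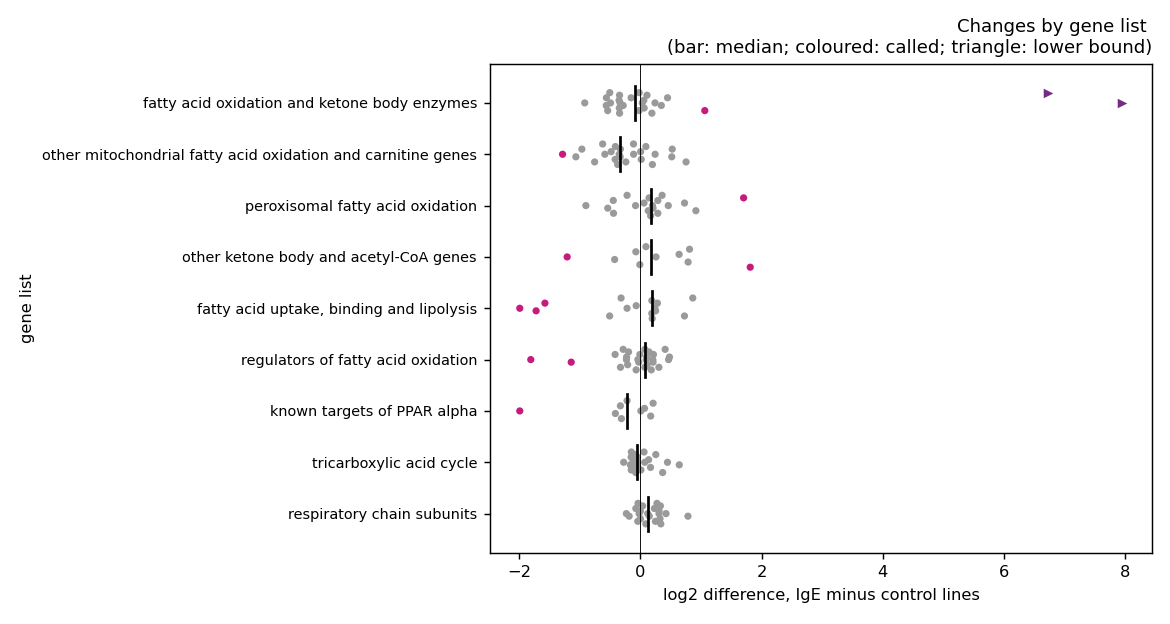
Log2 difference between IgE and control lines for each tested gene of the pathway and of 8 related lists, with a bar at the median of the list. Decr1 and Bdh1 are drawn at their lower bounds of 7.95 and 6.72, and the other genes lie between -1.99 and 1.81.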

How the data were processed

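Total RNA of 8 A20 samples, 2 per line, was labelled with Cy3 and hybridised to 8 arrays of 1 slide. Per the file headers, the deposited intensity of each spot is Agilent's processed signal, background-subtracted and detrended, not normalized between arrays, with probes placed on mm9. A log2 value table deposited by the authors orders the spots exactly like their median pixel intensity on every array, and its further normalization is not given in the sources used here. It served as an alternative. The slide and scan were shared by all arrays, and each line filled its own slide column, so column and line cannot be told apart.

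Processed intensities were scaled by each array's 75th percentile and taken to log2. Control spots and outlying spots were left out, repeated spots averaged, and a probe was kept when 1 or more lines had it well above background on both their arrays (29140 probes). Each gene was read by its brightest probe. The 8 arrays were fitted together in limma 3.58.1 (R 4.3.3), with a mean for each line (4 residual and 2.66 prior degrees of freedom), with two-sided tests adjusted over all 19973 genes by the Benjamini-Hochberg method. The fit was tested on simulated data. A bound divides the brighter side's mean by, per array, whichever is higher of the dim probe's signal and the weakest signal well above background. The number of arrays limits the precision.

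The 28 genes and all lists were chosen with earlier results of these data known. Every one of the 28 is accounted for. From each other list up to 3 called genes per direction were named, with a fixed set of genes named whatever their values. Some items of that set and of the marker lists are not reported here. The alternatives tried included quantile normalization, normexp (offset 50), a stricter filter or none, the authors' log2 table, the mean of a gene's probes, outlying spots kept, another prior, adjusted p alone, each array left out, a replicate block, and the line as a random block. Exon and UTR annotation on mm9 was not used here.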

Additional observations from a re-analysis of the deposited data

How the results depend on the processing

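In the IgE against the control lines, 3 of the 26 genes were called higher, among them Decr1 and Bdh1, which were chosen on this contrast. Requiring a signal well above background on all arrays gave 1, because Decr1 and Bdh1 are not tested there, and left-out arrays gave 2 to 3. The count called lower was 0, and 5 with adjusted p alone, with 0 throughout the left-out arrays. The median of -0.09 ranged from -0.20 to -0.06 over left-out arrays. For clone 18 against untransfected cells the count of 3 became 1 with the stricter filter and 5 with adjusted p alone, and ranged from 3 to 5 over left-out arrays. For clone 18 against IgM cells it became 1 and 6, with 2 to 3 over left-out arrays. For clone 41 against untransfected cells the count of 2 became 0 with the stricter filter, with 2 to 4 over left-out arrays. For clone 41 against IgM cells the count of 3 became 1 with the stricter filter and 5 with adjusted p alone, with 2 to 3 over left-out arrays. Between IgM and untransfected cells the count of 0 became 1 with quantile normalization and with adjusted p alone, and ranged from 0 to 1 over left-out arrays. Between the clones it was 0 under all settings run. No called result reversed its direction under these settings.

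The fitted log2 change of Decr1 was 6.20 with normexp, 6.75 in the authors' deposited table and 6.49 as the mean of its probes, and that of Bdh1 5.07, 5.80 and 6.87. The printed bounds do not rest on them. Over all genes, 679 higher and 1116 lower became 421 and 608 with normexp, 465 and 620 with the stricter filter, and 434 and 683 in the authors' table. The cause of these changes was not tested, other than the fewer genes of the stricter filter.

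Deviations of same-numbered arrays correlated between -0.02 and 0.32 across pairs of lines, so the numbers were not taken as pairs. With the replicate block 3 genes were called higher and 0 lower, the same counts. Signals near background limit Decr1 and Bdh1 in the control lines, so their folds are bounds.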
